A study of Mus musculus with 6 samples.

Results

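Wide MafA regions were stretches of at least 2500 bp where CUT&RUN peaks of the transcription factor MafA from both replicate libraries overlapped. A region was the union of peaks that overlapped by 1 bp or more, with a peak from each library, and its width was the union's end minus its start. Of 25894 such MafA regions, 679 (2.62%) met this rule, and the 25215 narrower ones served for comparison. These regions were chosen by width and by the presence of a peak in both libraries, so their widths, peak numbers and MafA signal are given as a description and carry no test.

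All libraries came from MIN6 cells, an insulin-secreting mouse line with beta cell properties, and the labels name no genetic change or drug in any group. The 3 groups of 2 replicates differed in antibody alone: anti-MafA against the endogenous protein at a dilution of 1:100, the positive control H3K4me3, and the negative control IgG. Each used 500000 cells permeabilised in 0.01% digitonin. Whether replicates came from separate cultures is not stated, and no IgG file was analysed here.

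MafA is a basic leucine zipper protein of the large MAF family and an activator of insulin transcription in mature beta cells. MAF dimers bind palindromic elements with the letters TGCTGA on each side of a centre that resembles an AP-1 site or a cyclic AMP response element. In CUT&RUN a tethered nuclease releases DNA around the bound protein, and peak callers join adjoining enriched positions. A wide peak is thus a stretch along which signal stays above background. H3K4me3 is a histone mark of active and poised gene starts.

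The cell label was checked through H3K4me3, counted within 1 kb of either end of a gene. Of 7 beta cell markers 6 carried the mark, the exception being Ins1. Over all 21887 protein-coding genes 12213 carried it by the same count, so the beta cell markers alone say little about the label. The delta, acinar and duct cell markers had it at 0 of 2, 0 of 3 and 0 of 3 genes, and 2 of 3 alpha cell markers were marked, Gcg and Irx2. The peak lists held 33013 and 42747 peaks for MafA replicates 1 and 2, and 16020 and 16904 for H3K4me3. All signal values are the authors' fold enrichment, the pileup at a peak's summit over modelled background. The fragments under each MafA summit were recovered from that value and its p-value, and had a median of 25 in replicate 1 and 46 in replicate 2 over each whole list, so replicate 2 rested on more fragments.

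The sequence under wide regions could be read where they contained an annotated gene start. Of 32851 RefSeq promoter windows in GRCm38.p6, each 250 bases before to 50 bases after a start, 143 of 126 genes lay wholly inside a wide region. These 4 stretches of 250 bases before the start are shown because they come from an insulin gene, from a beta cell glucose-6-phosphatase gene, from Dner, a gene for a Notch ligand of neurons, whose start has a gapped MAF match, and from Dusp1, with a cyclic AMP response element. Capitals mark every match to the motifs searched on both strands, which were TGCTGA, the palindromes of TGCTGA and TCAGCA with 1 or 2 bases between them, a gapped element of TGC and TCAGC with 4 bases between them, the AP-1 element TGACTCA and the cyclic AMP response element TGACGTCA. The longer MAF elements contain the shorter ones.
Ins1, chr19:52264047-52264296, plus strand: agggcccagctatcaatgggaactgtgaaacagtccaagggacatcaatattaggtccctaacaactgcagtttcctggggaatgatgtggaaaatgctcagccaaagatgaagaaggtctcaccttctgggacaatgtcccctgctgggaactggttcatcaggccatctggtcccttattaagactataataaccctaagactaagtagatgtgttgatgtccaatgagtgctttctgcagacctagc
G6pc2, chr2:69219699-69219948, plus strand: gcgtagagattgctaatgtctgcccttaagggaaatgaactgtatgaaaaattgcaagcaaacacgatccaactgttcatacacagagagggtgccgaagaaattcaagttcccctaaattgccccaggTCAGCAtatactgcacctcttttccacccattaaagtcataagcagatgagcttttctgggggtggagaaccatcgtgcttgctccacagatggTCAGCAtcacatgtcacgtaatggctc
Dner, chr1:84696222-84696471, minus strand: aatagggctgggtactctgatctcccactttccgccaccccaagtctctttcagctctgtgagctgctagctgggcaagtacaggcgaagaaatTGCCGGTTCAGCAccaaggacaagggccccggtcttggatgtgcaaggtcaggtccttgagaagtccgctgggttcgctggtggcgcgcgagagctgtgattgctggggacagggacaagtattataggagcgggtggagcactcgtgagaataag
Dusp1, chr17:26508473-26508722, minus strand: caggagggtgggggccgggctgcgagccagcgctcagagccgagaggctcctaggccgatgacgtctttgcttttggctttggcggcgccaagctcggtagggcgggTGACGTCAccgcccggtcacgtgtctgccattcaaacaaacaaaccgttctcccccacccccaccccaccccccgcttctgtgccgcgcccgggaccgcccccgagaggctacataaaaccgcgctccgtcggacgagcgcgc

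The letters TGCTGA, read on either strand, occurred in 32 of the 143 windows inside wide regions (22.4%, 95% Wilson interval 16.3 to 29.9%). The share was 21.8% (20.3 to 23.4%) of 2830 windows inside narrower regions and 19.5% of all 32851 windows. These shares lay within each other's intervals for wide and narrower regions. Before the G6pc2 start the letters stood as TCAGCA at positions -121 and -27, counted backwards from the start. Neither palindromic element, with 13 or 14 letters, occurred in a window inside a wide or narrower region, and each was found in 2 of all windows. The gapped element was in 4 windows inside wide regions (2.80%, 1.09 to 6.97%), in 2.76% inside narrower ones and in 1.303% of all. The 4 belonged to Dner, Spata45, Pcsk2 and Ins1, the prohormone convertase and insulin genes having it just after their annotated RefSeq starts. At Ins1 it read TGCAGCTTCAGC, from base 22 counted from the annotated start, and at Pcsk2 GCTGAAAATGCA, from base 21. Where transcription starts in these cells was not examined, so these matches may lie before the start in use. The AP-1 element was in 9 windows (6.29%, 3.35 to 11.5%) and the cyclic AMP response element in 4 (2.80%), against 4.81% and 3.92% inside narrower regions and 5.20% and 1.79% of all windows. The Dusp1 match began at position -143. Several of these windows belong to alternative starts of 1 gene, so they are not independent, and a match is a description of the letters only.

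Wide regions ran from 2500 to 15015 bp, with a median of 2922 bp and quartiles of 2664 and 3339 bp. Narrower regions had a median of 905 bp. Together the wide regions covered 2.15 Mb, and narrower ones 25.1 Mb. Just inside the threshold, the regions nearest to Hspa4, Fmc1 and Pex7 were 2500, 2500 and 2501 bp wide, with fold enrichment of 6.65 and 8.97, 3.52 and 4.26, and 13.2 and 13.3 in replicates 1 and 2. Just outside, those nearest to Ndn, Pcsk2 and C2cd4b were 2498, 2499 and 2499 bp wide, with 17.4 and 15.3, 34.9 and 35.5, and 8.55 and 12.2. Signal just inside and just outside the threshold covered overlapping ranges.

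**Figure D1:**
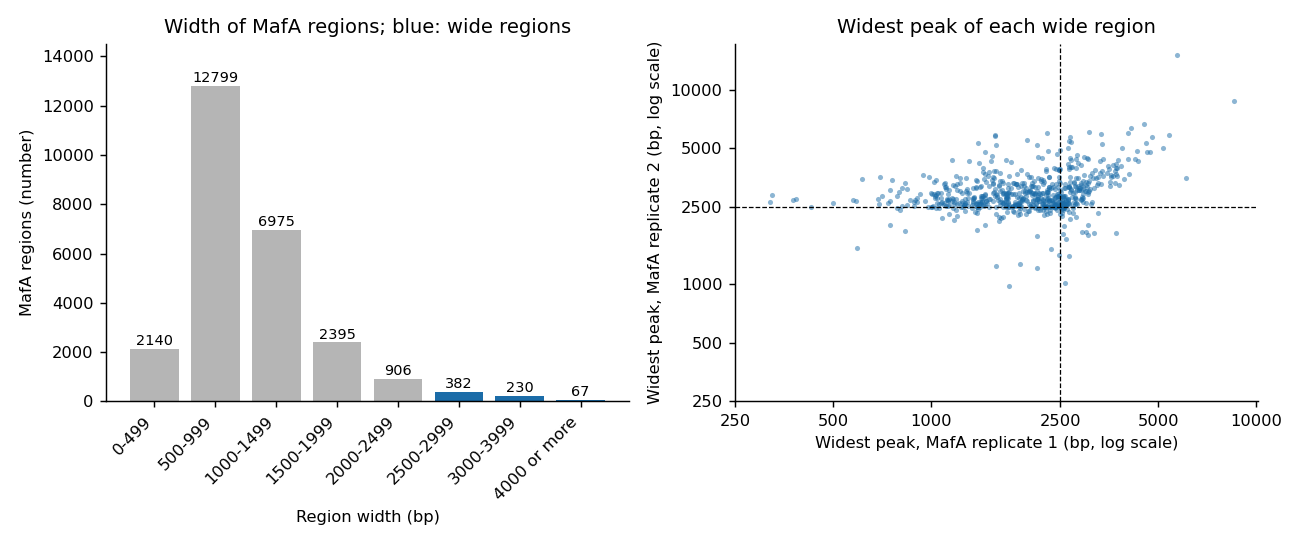
Left, number of MafA regions by width in bp, with the wide regions in blue and the number above each bar. Right, for each of the 679 wide regions, the widest peak in MafA replicate 1 (x axis) and replicate 2 (y axis) in bp on log scales, with dashed lines at 2500 bp; most points lie above the horizontal line and left of the vertical one.

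Replicate 2 reached the width limit with a single peak more often than replicate 1. A single peak of at least 2500 bp was present in replicate 2 at 589 wide regions (86.7%) and in replicate 1 at 199 (29.3%). Both libraries had one at 171 regions, and at 62 neither did, so that the width arose only from joining peaks. In replicate 1, 269 wide regions (39.6%) were made of more than 1 peak, against 25 (3.68%) in replicate 2. The usual wide region was therefore a continuous peak in replicate 2 that met 1 or more shorter peaks of replicate 1. The stretch covered by both had a median of 74.2% of the union. All 200 peaks of this width in replicate 1 and 590 of 591 in replicate 2 overlapped a peak of the other library. Among wide regions the Spearman correlation of the widest peak between libraries was 0.246. That of fold enrichment was 0.910. Among narrower regions the 2 values were 0.658 and 0.769. The rule selects on width and so limits the spread of the widest peak, and no order of strength and extent is drawn from these values. The correlations are across regions, which share libraries and a control, and are descriptions.

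The strongest summits of the replicates lay close together even though the intervals were long. Their median distance was 35 bp, and 492 of 679 pairs (72.5%) lay within 100 bp. In narrower regions the median was 56 bp, with 64.7% within 100 bp. At 58 wide regions the summits were more than 1000 bp apart, and there the 2 values describe different positions. The replicate 1 summit lay in the central 50% of the interval in 71.9% of wide and 74.5% of narrower regions.

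Median fold enrichment at wide regions was 11.2 in replicate 1 (quartiles 7.57 and 16.6) and 12.2 in replicate 2 (8.12 and 18.5). At narrower regions it was 5.45 and 5.89, a ratio of medians of 2.06 ± 0.00777 (mean ± SD, n = 2 libraries). Wide regions were thus stronger in both libraries, but the lists overlapped widely: the weakest wide summits had 2.21 and 2.44, and the strongest narrower ones 61.9 and 73.8. Median fragments at the summit were 89 and 198 for wide regions, and 29 and 61 for narrower regions. The modelled background also differed, with medians of 7.02 and 11 at wide regions against 4.16 and 6.00, and its part in the width was not tested. Fold enrichment and width come from the same signal. Within the wide regions width and fold enrichment had Spearman correlations of 0.115 and 0.105 in replicates 1 and 2, against 0.415 and 0.458 among narrower regions. Both groups are cut on width, which limits these correlations, so the lower values do not show that width and strength are unrelated in wide regions.

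**Figure D2:**
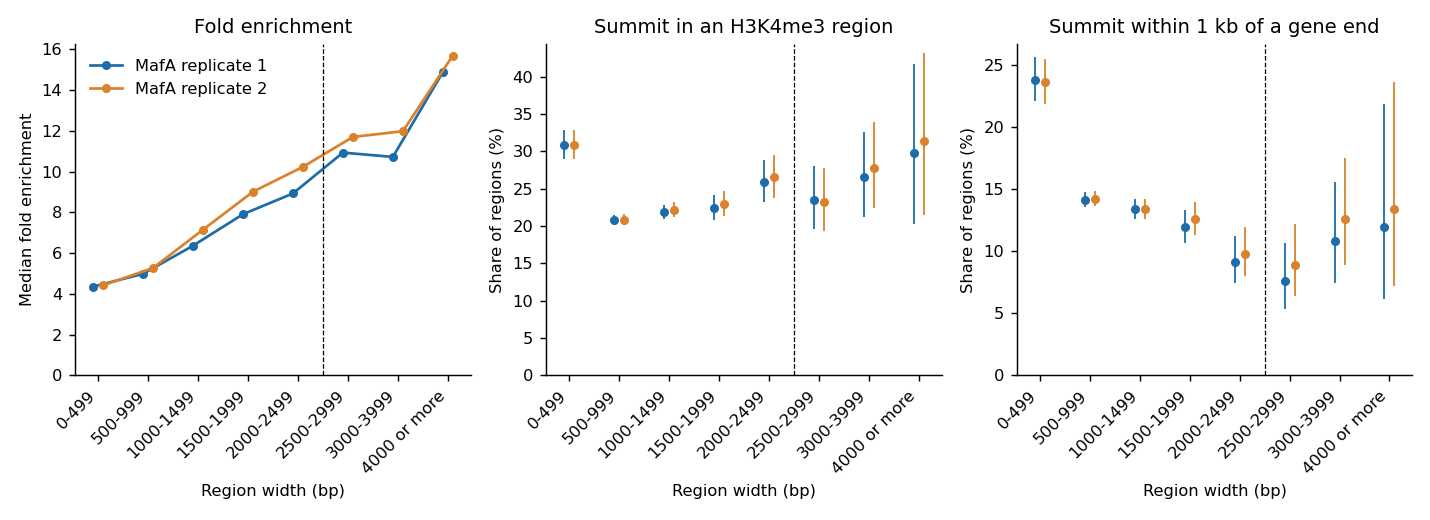
Median fold enrichment (left), share of regions with the summit in an H3K4me3 region (middle) and share with the summit within 1 kb of a protein-coding gene end (right), by region width in bp. Points are the 2 MafA replicates, bars are 95% Wilson intervals, and the dashed line marks 2500 bp. Fold enrichment reached 14.9 and 15.7 in regions of 4000 bp or more, and the H3K4me3 share was highest there and in regions under 500 bp.

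The overlap of wide MafA regions with H3K4me3 was examined next, on 15573 H3K4me3 regions found in both replicates of that mark. Of the 679 wide regions, 222 (32.7%, 29.3 to 36.3%) touched an H3K4me3 region, against 23.2% of narrower regions. A longer interval touches more by its length, so the summit was used for the comparison. The summit lay inside an H3K4me3 region at 171 wide regions by replicate 1 (25.2%, 22.1 to 28.6%) and at 174 by replicate 2 (25.6%, 22.5 to 29.0%). The narrower shares were 22.3% (21.8 to 22.8%) and 22.5% (21.98 to 23.01%). The difference of 3.01 ± 0.169 percentage points (n = 2) had overlapping intervals. It depended on replicate 2: with the peaks of replicate 1 alone it was -0.184 points and with those of replicate 2 alone 5.12. Regions of 1 library are not replicates, and no test over libraries exists for wide against narrower regions, so these differences are given with intervals for counting error only.

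At 42 of the 222 marked wide regions neither MafA summit lay inside the mark (18.9%), whereas this was so at 2.17% of 5856 marked narrower regions. Both lay inside it at 165. A longer interval can touch a mark away from its summit, so the width rule bears on this share. The mark covered a median of 69.0% of the bp of a marked wide region, and 100% of a narrower one. Where both summits lay inside, the H3K4me3 region had a median width of 2861 bp at 165 wide and 2046 bp at 5564 narrower regions. The distance between the MafA and H3K4me3 summits had a median of 581 bp against 289 bp. H3K4me3 fold enrichment was 11.9 and 12.2 in its replicates 1 and 2 under wide regions, and 15.2 and 14.4 under narrower ones. Within 1 kb of gene ends the medians were 15.2 and 14.5 under 47 wide regions and 18.3 and 16.7 under 3141 narrower ones. Farther from gene ends they were 10.5 and 9.37 under 107 wide regions and 9.05 and 9.43 under 2337 narrower ones, so the order held near gene ends but not in both libraries away from them.

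The summits of wide regions lay less often near the outer ends of protein-coding genes. This holds for summits and not for whole intervals. The 679 wide regions wholly contained 143 RefSeq promoter windows and the 25215 narrower ones 2830, and a longer interval can hold more by its length. Their summit was within 1 kb of either end of a protein-coding gene in 62 cases by replicate 1 (9.13%, 7.19 to 11.5%) and 72 by replicate 2 (10.6%, 8.51 to 13.1%). Narrower regions had 14.4% (13.9 to 14.8%) and 14.5% (14.1 to 14.9%). The difference was -4.56 ± 0.952 points (n = 2), and the intervals did not overlap in either library. More wide summits lay inside genes at over 1 kb from an end, 52.7% and 51.7% against 46.3% and 46.2%. Outside genes the shares were similar: 21.6% and 21.1% of wide summits lay 1 to 50 kb from an end, against 21.2% in both libraries, and 16.5% and 16.6% lay farther away, against 18.1% in both.

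Mark and position were then combined. Counted here were summits inside the mark but over 1 kb from the outer ends of protein-coding genes. There were 121 such wide regions by replicate 1 (17.8%, 15.1 to 20.9%) and 114 by replicate 2 (16.8%, 14.2 to 19.8%). The narrower shares were 9.67% (9.31 to 10.0%) and 9.70% (9.34 to 10.1%). The difference was 7.62 ± 0.749 points (n = 2), 4.80 with replicate 1 peaks alone and 8.85 with replicate 2 alone. Ends of noncoding genes and inner starts of coding genes were not counted here. Some of these summits therefore lay by an annotated start, as at Slc43a2 and Abr, where an inner start was within 1 kb.

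Wide regions also had closer MafA neighbours. Another MafA summit lay within 10 kb of 375 of them (55.2%), against 37.9% of narrower regions, measured from summit to summit. The median distance to the nearest was 8433 bp against 15725 bp, and the mean number within 50 kb was 3.96 against 2.32. The difference in the 10 kb share was 17.1 ± 0.301 points (n = 2, the summits of each library in the same joint regions). This SD is therefore no spread between separately called regions. With replicate 1 alone the difference was 24.7 and with replicate 2 alone 19.8. There each peak was a region, so pieces of 1 joint region counted as neighbours and the measure differs. Of the wide regions, 156 (23.0%) had another wide region within 50 kb. Chromosome 19 had the largest share of its MafA regions in the wide class, 35 of 896 (3.91%, 2.82 to 5.38%). Chromosome 18 was close, with 3.67%, and chromosome 16 had the smallest share, 11 of 909 (1.21%, 0.677 to 2.15%). The share over all chromosomes was 2.62%. Neighbouring wide regions are not independent, so these intervals hold counting error only.

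The widest region, on chromosome 19 from 5827873 to 5842887, lay within Neat1, the gene of the noncoding RNA that scaffolds nuclear paraspeckles. Replicate 2 had it as 1 peak of 15015 bp, whereas replicate 1 had 6 peaks, the widest of 5692 bp. Fold enrichment was 8.57 and 11.9, so this stretch was not strong for its length. A second region from 5845101 to 5850988, of 5888 bp, overlapped the ends of Neat1 and Frmd8 and had 19.7 and 21.7 with both summits at the same base. Both touched H3K4me3, which covered 22.5% and 76.7% of them.

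The next widest, 8805 bp inside Papss2, which makes the sulfate donor for sulfotransferases, was 1 peak of 8558 and 8797 bp in the replicates, with fold enrichment of 26.3 and 30.8. Both libraries thus had the wide peak. The remaining 7 of the 10 widest ran from 5966 to 6658 bp. They lay near C2cd4b, near Ero1b and Edaradd, and inside Hsd17b12, Aida, Acly and Gng12. C2cd4b is a gene of a type 2 diabetes locus, and Acly makes cytosolic acetyl-CoA. The C2cd4b region, 4865 bp from the gene, had 21.7 and 26.7. The regions listed for Ero1b and Edaradd lie on chromosome 13 from 12557612 to 12564038 and from 12539052 to 12545450. Of these 10 regions, 6 touched H3K4me3, against 32.7% of all wide regions, and a longer interval touches more by its length.

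Without any H3K4me3 contact, 457 wide regions remained, and they were stronger by fold enrichment than the marked ones, with medians of 12.2 and 13.9 against 8.74 and 9.0. By fragments the order was the reverse, 81 and 186 against 101 and 237, with backgrounds of 5.55 and 9.0 against 11 and 18.9. The order therefore depends on the measure. The 10 widest unmarked regions ran from 5352 to 6427 bp. One lay 5691 bp from Ero1b, the oxidase for disulfide bonds of proinsulin, and 9 lay inside Hsd17b12, Aida, Gng12, Ralgapa2, Ubr4, Ypel2, Abhd2, Trappc9 and Slc16a12. The Trappc9 region shows how the libraries differed. It had 4 peaks of at most 1400 bp in replicate 1 and 1 of 5351 bp in replicate 2, yet its fold enrichment was 26.0 and 28.1. Slc16a12, a creatine transporter gene, had 1 peak in each library, of 4566 and 5352 bp, with 17.3 and 24.5.

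The strongest wide regions were not the widest. The 10 that ranked highest in fold enrichment, by the mean of both replicates' ranks, were 2565 to 5563 bp wide. Of these, 8 touched no H3K4me3, as did 457 of all 679 wide regions. The first of the 10, on chromosome 3 from 46888786 to 46892772, had 49.99 and 55.3. Its nearest protein-coding gene, Pabpc4l, lay 443364 bp away. Regions near Snx18 and inside Lrrfip2 had 43.6 and 54.1, and 40.9 and 58.3. At Lrrfip2 the background was only 2.11 and 3.13, and the summit held 126 and 321 fragments. The others were nearest to Map1b, Krr1, Atp8b1 and Cand1, at 33348 to 132843 bp, or inside Gse1, Scnn1b and Per2. The region in Per2, a repressor of the circadian clock, was the widest of these, with 38.5 and 37.5, and H3K4me3 covered 91.6% of it.

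**Figure D3:**
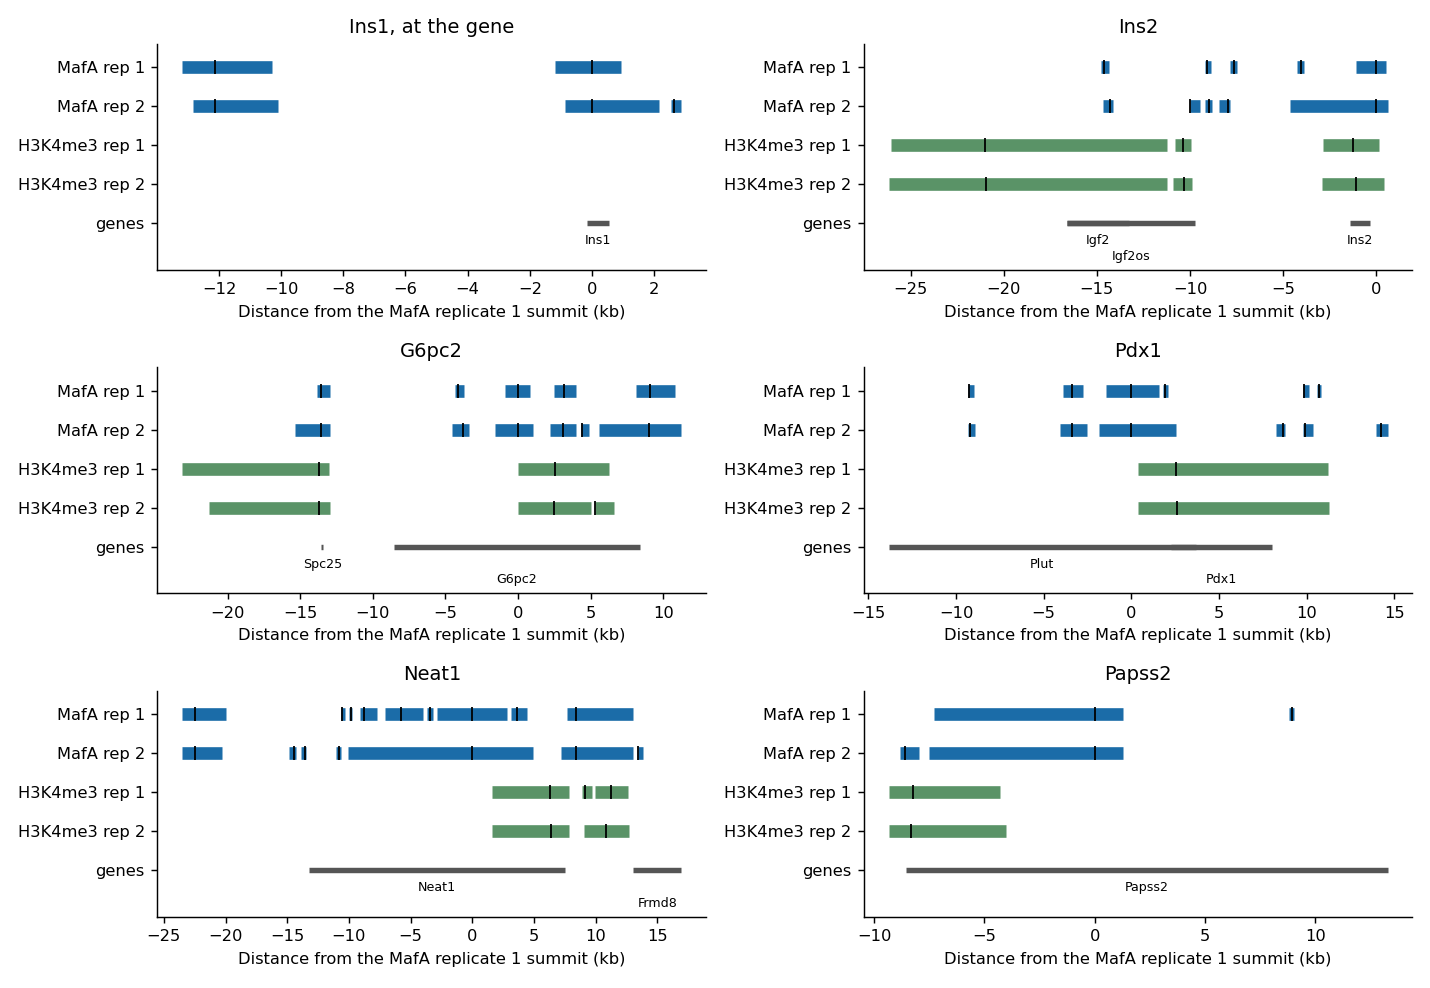
Peaks of each library (bars, with a tick at each summit) and annotated genes at 6 wide MafA regions, by distance in kb from the MafA replicate 1 summit. At Ins1 no H3K4me3 peak is present, at Neat1 replicate 1 has several peaks where replicate 2 has 1, and at Papss2 the wide peak is present in both MafA replicates.

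Wide regions were then placed on genes. A gene was counted when a wide region lay in it or within 10 kb. This held for 480 of 21887 protein-coding genes (2.19%), for 4.98% of the 9639 genes with any MafA region, and for 3.35% of genes with H3K4me3 at an end. Of 60 genes in 3 beta cell lists, 19 had a wide region (31.7%, 21.3 to 44.2%), and of the 51 with any MafA region it was 37.3% (25.3 to 51.0%). Both shares lay above the background given for all genes. With the peaks of replicate 1 alone 8 genes (13.3%) had one, against 0.662% of all genes, and with replicate 2 alone 18, against 1.97%. The lists were drawn up with earlier results of these data known, and beta cell genes had a median length of 28.6 kb against 17.2 kb for all, so their counts are a description.

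**Figure D4:**
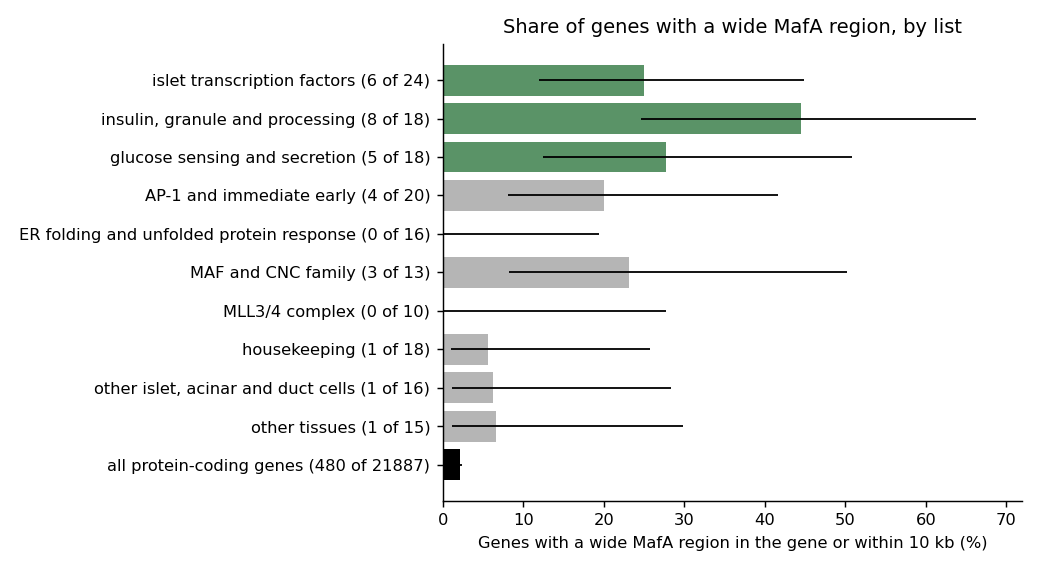
Share of genes (x axis, %) with a wide MafA region in the gene or within 10 kb, for 10 gene lists and for all protein-coding genes, with 95% Wilson intervals as black lines. The 3 beta cell lists, in green, reach 25, 44.4 and 27.8%, and all genes 2.19%.

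The hormone and granule list had the most, 8 of 18 genes (44.4%, 24.6 to 66.3%). Ins1, which encodes the insulin I of rodents, had 2 wide regions and no H3K4me3 at either. The distal one, on chromosome 19 from 52251274 to 52254358, had fold enrichment of 29.4 and 44.0, the highest of all wide regions at these lists, with summits 6 bp apart and 11980 bp from the gene. The one over the gene, from 52263270 to 52266620, had 8.94 and 10.8, with summits 155 and 142 bases after the annotated start used above. The distal region was stronger in both libraries.

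At Ins2, the other insulin gene, the region on chromosome 7 from 142675469 to 142680691 was 1 peak of 5223 bp in replicate 2 and 2 peaks in replicate 1, the widest of 1586 bp. Fold enrichment was 14.9 and 20.8 at the same base in both, 362 bp from the gene, and H3K4me3 covered 63.7% of the region. Iapp, which encodes amylin, had 2 unmarked regions, one 1577 bp from the gene with 10.5 and 14.3 and another 8600 bp away with 8.37 and 10.3. These also count for the overlapping gene Slco1a5.

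Granule and processing genes followed. Chga, for the granule protein chromogranin A, had an unmarked region with 8.91 and 10.8, and Cpe, the carboxypeptidase that trims proinsulin, had 11.3 and 12.9 inside the gene. Over the start of Pcsk2, a convertase that cleaves proinsulin, the region had 5.20 and 5.56 and the mark covered 75.9% of it. Ero1b had 14.5 and 12.0. The region counted for Ptprn, a granule membrane protein gene, had 4.64 and 5.39, but its summit lay 10385 bp from Ptprn and it overlapped another gene, Dnajb2. Pcsk2 and Ptprn lay under the lower quartile of all wide regions in both libraries. Chgb, Pcsk1, Scg2, Scg3, Scg5, Ptprn2, Slc30a8, Ucn3, Vgf and Sytl4 had no wide region. The widest region at Slc30a8, the granule zinc transporter, was 1942 bp.

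Islet transcription factors had wide regions at 6 of 24 genes (25%, 12.0 to 44.9%). Pdx1, the master regulator of pancreas and beta cells, had one of 4404 bp on chromosome 5 from 147265984 to 147270387, with fold enrichment of 18.2 and 25.002. Its summits lay 2 bp apart and 2263 bp from the gene, outside the mark, which covered 49.6% of the region and began towards the gene. Isl1, a homeodomain factor, had 8.18 and 8.22 beside the gene with 88.1% under the mark. Glis3, a zinc finger factor for insulin transcription, had 2 unmarked regions inside the gene with 9.91 and 9.90, and 6.10 and 5.73. Rfx3, a factor of ciliated and endocrine cells, had 15.4 and 17.2 inside the gene. These Glis3 and Rfx3 summits stood on backgrounds of 30.2 to 73.0, against medians of 7.02 and 11 for wide regions, and their part in the signal was not tested.

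At Mafa itself the wide region, inside Zc3h3 and with its replicate 1 summit 9837 bp from Mafa, had 4.91 and 5.39, but the summits were 2162 bp apart. At Neurod1, a basic helix-loop-helix activator of insulin, it had 4.33 and 10.3 with summits 1215 bp apart. For both genes the replicates thus place their strongest signal at different points. Nkx6-1, Nkx2-2, Pax6, Foxa2, Insm1 and Rfx6 were among the 18 factors without a wide region. The widest at Nkx6-1 was 2249 bp.

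Of the genes for glucose sensing and secretion, 5 of 18 had wide regions (27.8%, 12.5 to 50.9%). G6pc2, a beta cell glucose-6-phosphatase, had 3, each touching H3K4me3. The one over the start shown above had 11.3 and 10.3, with summits at positions -333 and -329 from the start. The one at the far end of the gene was 5701 bp wide with 7.78 and 5.35, and the third, which also overlapped Spc25, had 5.95 and 6.08 with summits 2191 bp apart. The table's outer ends of G6pc2 had no H3K4me3 within 1 kb, although the mark reached the inner start. Slc2a2, the GLUT2 glucose transporter, had a region of 5346 bp with 7.54 and 10.5, of which the mark covered 38.9%.

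Ion channel genes were in the same list. Abcc8, the sulfonylurea receptor of the KATP channel, had 2 unmarked regions inside the gene with 7.24 and 8.39, and 12.9 and 14.5. Trpm5, a cation channel of beta and taste cells, had 16.7 and 21.6 with 77.8% under the mark. Cacna1c, an L-type calcium channel, had 16.8 and 12.7 with summits 2861 bp apart. Kcnj11, Glp1r, Gipr and Ffar1 were among the genes with none.

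**Figure D5:**
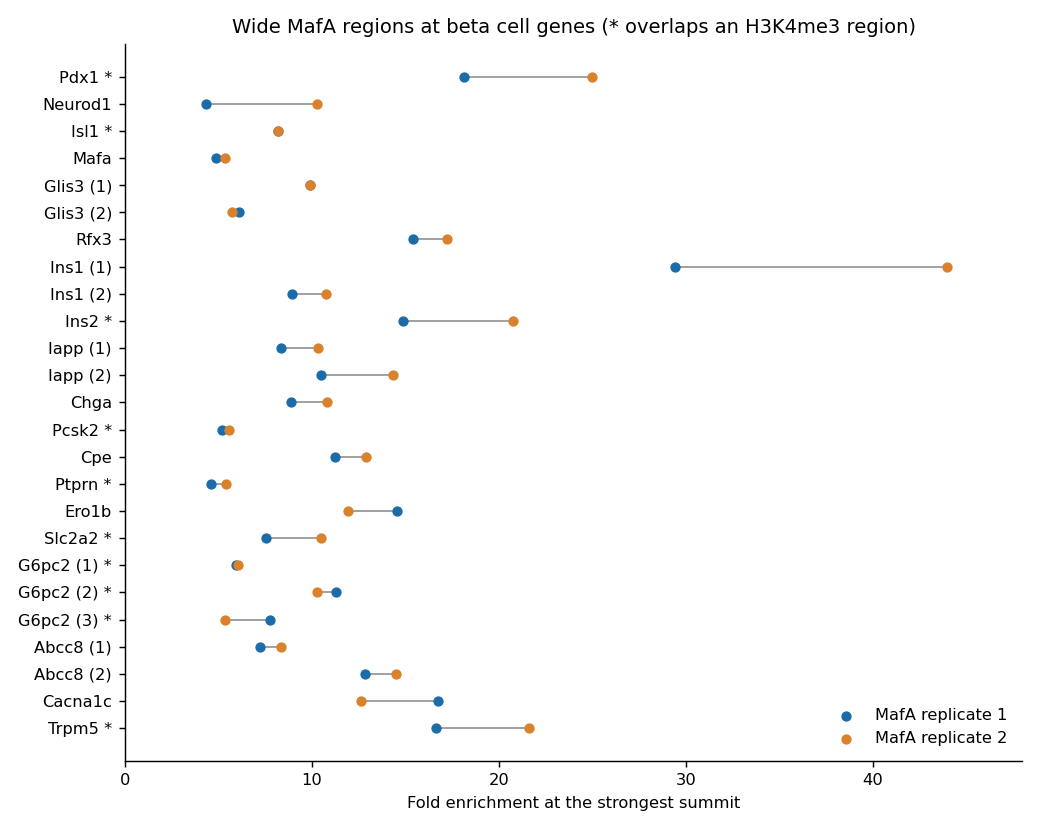
Fold enrichment at the strongest summit in MafA replicate 1 (blue) and replicate 2 (orange) for each wide region at genes of the 3 beta cell lists, with several regions of a gene numbered along the chromosome and an asterisk where the region overlaps H3K4me3. The distal Ins1 region is highest in both replicates, at 29.4 and 44.0.

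Over the 3 lists the genes held 25 distinct wide regions, of which 10 touched H3K4me3 and 15 did not. Among all 679 wide regions 222 touched it (32.7%), so most were unmarked there too. The median fold enrichment of the 25 was 8.94 and 10.5, and that of all wide regions 11.2 and 12.2. Wide regions at these genes were thus not stronger, by their median, than wide regions as a whole. Leaving out regions with summits over 1000 bp apart gave 16 genes against 2.03% of all genes.

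Among immediate early genes, which respond within minutes to calcium and growth signals, 4 of 20 had a wide region (20%, 8.07 to 41.6%). The share over all genes was 2.19%. All 4 regions touched H3K4me3, against 32.7% of all wide regions, but all 20 genes of the list carried the mark at an end. Fos, an AP-1 subunit, had 21.1 and 18.1 with the replicate 1 summit 216 bp from the gene and 95.7% of the region under the mark. Dusp1, a phosphatase that switches off MAP kinases, had a region of 4425 bp over the start with 7.16 and 8.73. Myc had 9.20 and 9.06, and Btg2, an antiproliferative gene, had 11.7 and 11 at a summit 11413 bp from the gene. Their background was high, with medians of 21.0 and 31.1.

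In the MAF and CNC family 3 of 13 genes had wide regions (23.1%, 8.18 to 50.3%), against 2.19% of all genes. Bach2, a repressor that pairs with small MAF proteins, had 4, with fold enrichment from 5.18 and 3.19 to 24.9 and 27.2. The weakest of them had summits 1675 bp apart. Mafg, a small MAF that binds the same elements without an activation domain, had 11.9 in both libraries over a region of 4323 bp that lay wholly under H3K4me3. The third gene was Mafa.

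The other lists had 0 or 1 gene each. No wide region lay at any of 16 genes of endoplasmic reticulum folding (0 to 19.4%), or 10 of the MLL3/4 complex (0 to 27.8%), intervals that do not exclude the 2.19% of all genes. The housekeeping list had 1 of 18 (5.56%, 0.988 to 25.8%). Other islet, acinar and duct genes had 1 of 16 (6.25%, 1.11 to 28.3%), Gcg, the alpha cell hormone gene, with 21.0 and 11.1 in a region of 2922 bp that was 1024 bp in replicate 1. Genes of other tissues had 1 of 15 (6.67%, 1.19 to 29.8%), Sftpc, with 19.6 and 18.8 at 7166 bp from the gene, inside Bmp1. These intervals also include the 2.19% of all genes.

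Some genes held several wide regions: 417 genes had 1, 51 had 2 and 12 had 3 or more. Tmem108, a neuronal membrane protein gene of 279 kb, had 6 among 20 MafA regions, and Slc16a12, of 79.1 kb, had 5 among 9. Maml3, a Notch coactivator gene, and Bach2 had 4 each, among 29 and 20. With 3 each came Camta1, Gse1, Gng12, Abhd2, Ift81, G6pc2, Slco1a5 and Fhdc1. G6pc2 was the shortest of these at 16.9 kb, and at Fhdc1 all 3 of its MafA regions were wide. These counts are not corrected for length.

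Wide regions also lay at replication-dependent histone genes, which was noticed after the values were seen. Of 67 such genes 59 had any MafA region and 16 (23.9%) had a wide one within 10 kb, against 2.19% of all genes, but the genes lie in clusters and shared only 5 distinct regions, 4 on chromosome 13 and 1 on chromosome 3. All 5 touched H3K4me3, with fold enrichment from 6.38 to 14.1 in replicate 1 and from 6.03 to 15.8 in replicate 2. Of 1005 miRNA hairpins in the RefSeq table, 3 overlapped a wide region (Mir5126, Mir3971 and Mir7214) and 46 any MafA region. Only overlap counted for hairpins, without the 10 kb window, so these counts cannot be set against the 2.19% of protein-coding genes. No result about hairpins is drawn from them.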

How the data were processed

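MafA and H3K4me3 peak lists of 2 libraries each were analysed as the authors deposited them. Peaks came from MACS2 on build GRCm38 (mm10), per the submitters' processing notes. The MACS2 version, aligner, control and duplicate handling are not given in the sources used here. The deposited fold enrichment is a ratio of pileup to background at the summit, the deposited −log10 p and −log10 q belong to the same summit, and the lowest −log10 q was 2.00. The deposited score is derived from q and was not used.

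Regions and shares were computed with pandas 2.3.3, numpy 2.4.6 and scipy 1.17.1 under Python 3.11.15, and figures drawn with matplotlib 3.10.9. The strongest peak of each library gave a region its values. A mean ± SD with n = 2 takes the summits or values of each library in the same joint regions. It is therefore no spread between regions called separately. With 1 library alone, each of its peaks counted as a region. Shares carry 95% Wilson intervals, which hold no error but that of counting. Fragments were recovered from fold enrichment and p with a scaling of 1 for replicate 1 and 0.746 for replicate 2, which solved 100% and 99.99% of peaks within a relative tolerance of 0.0001. The recovery and the joining of peaks were tested on simulated data. Genes came from the RefSeq table of GRCm38.p6, which has no strand column. Both ends of each gene were therefore used. All 168 list entries matched a symbol.

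The members and lists were chosen with earlier results of these data known. Named regions are the 10 widest, the 10 strongest by mean rank, the 10 widest without H3K4me3, those beside the threshold, genes with the most wide regions, and list genes. Alternatives covered the width, overlap, q-value, windows and left-out libraries. A planned search for motifs at summits was replaced by promoter windows, as no genome was used. No test was made, since regions of 1 library are not replicates. Some genes of the lists are not reported here by name.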

Additional observations from a re-analysis of the deposited data

How the results depend on the processing

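Fewer MafA regions passed with replicate 1 alone: the number of wide regions ranged from 200 to 591 when either MafA library was left out, against 679. It was 1585 at 2000 bp, 67 at 4000 bp, 206 by the stretch covered in both libraries and 1488 with peaks within 1 kb joined. The share with the summit in an H3K4me3 region, 25.4%, became 25.9% at 2000 bp, 30.6% at 4000 bp, 23.5% by the stretch in both, 22.6% with 50% reciprocal overlap and 32.7% for any overlap. It ranged from 19.5% to 27.7% with a library left out. The difference from narrower regions in that share, 3.01 points, was 3.65, 8.15, 1.08, 1.19 and 9.47 in the same order and 2.14 with −log10 q of at least 5. It ranged from -0.184 to 5.12 with a library left out, and reversed without MafA replicate 2; the cause was not tested. The gene end share, 9.87%, was 12.7% at 4000 bp, 8.20% with reciprocal overlap, 20.2% within 5 kb and 15.9% for all genes, and ranged from 8.50% to 11.5%. Its difference was -1.63 points at 4000 bp and -3.60 for all genes. The fold enrichment ratio was 1.87, 2.67, 2.37 and 2.14 at 2000 bp, at 4000 bp, by the stretch in both and with reciprocal overlap. It was 1.89 with the q limit and 3.16 for fragments, and ranged from 2.58 to 2.61. The beta cell count was 25 at 2000 bp (41.7%), against 4.61% of all genes, and 6 at 4000 bp (10%), against 0.251%. It ranged from 8 to 18 with a library left out, against 0.662% and 1.97% of all genes. The difference in marked summits away from gene ends was 12.5 points at 4000 bp and ranged from 4.80 to 8.85. The neighbour difference was 14.1 at 2000 bp and 27.4 at 4000 bp and ranged from 19.8 to 24.7. The last 2 differences, the limit on summit distance, the gapped element and the promoter windows were chosen after seeing the data. The planned motif search at summits was not run, as no genome was used. No paired analysis was possible because the results come from no test and each antibody has 1 group. Replicate 1 had a median of 25 fragments per summit and replicate 2 had 46, and the part of depth in the width was not tested.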
